A study of Mus musculus with 12 samples.

Results

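The tubulin isotype genes are the 10 alpha and beta tubulin genes Tuba1a, Tuba1b, Tuba1c, Tuba4a, Tubb2a, Tubb2b, Tubb3, Tubb4a, Tubb5 and Tubb6, and their mRNAs were followed here in the somas and neurites of mouse hippocampal neurons with and without a blocked proteasome. They were found by mapping the Entrez identifiers of the count files to mouse symbols, which gave 10 members among the 27179 genes listed. The cultures came from pups of postnatal day 0 or 1 of the C57BL/6 strain according to the labels, while the study's methods name both C57BL/6 and FVB mice, and no gene was altered in any group. Neurons were grown for 17 or 18 days in Transwell inserts, cups with a porous membrane. The membrane is meant to let neurites through and to hold the cell bodies above. MG132 somas and MG132 neurites came from cultures given the proteasome inhibitor MG132 at 10 µM for 7 h, and Ctrl somas and Ctrl neurites from cultures given its solvent, DMSO. There were 3 libraries in each of these 4 groups. A neurites library holds all RNA found below the membrane, from axons, dendrites and any other cell that grew there. The labels do not say whether replicates came from separate cultures, so the p-values measure the spread between these libraries, which may in part be technical.

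Microtubules are polymers of a dimer of 1 alpha and 1 beta tubulin. Mammals make each subunit from several genes, the isotypes, whose proteins are nearly alike except in the acidic tail at the C terminus, where enzymes add or remove glutamate and tyrosine and where many microtubule-binding proteins attach. Tubb3 is the classical neuronal beta isotype, Tubb2a and Tubb2b are abundant in developing and adult brain, Tubb4a is made by neurons and by myelinating oligodendrocytes, Tubb5 is used by most cells and strongly by dividing ones, and Tubb6 is known mainly from tissues other than brain. Tuba1a is the main alpha isotype of young neurons, Tuba1b and Tuba1c are made by most cells, and Tuba4a, found in adult brain and muscle, lacks the encoded C-terminal tyrosine of the other alpha isotypes. Cells also control tubulin mRNA by autoregulation: when free dimers are in excess, TTC5 binds the first amino acids of a nascent tubulin chain and, with SCAPER, has the mRNA degraded.

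The coding starts, which encode the amino acids that TTC5 binds, are shown to print how the isotypes differ there in bases. They come from the GENCODE M21 transcripts (GRCm38), are written 5′ to 3′, and carry the first 4 codons in capitals.
Tuba1a: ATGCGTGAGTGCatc
Tuba4a: ATGCGCGAGTGCatt
Tubb2a: ATGCGCGAGATCgtg
Tubb2b: ATGCGAGAGATCgtg
Tubb3: ATGAGGGAGATCgtg
Tubb4a: ATGCGGGAAATCgtg
Tubb5: ATGAGGGAAATCgtg
Over these 15 bases Tuba1a, Tuba1b and Tuba1c had 0 mismatches, Tubb2a and Tubb2b had 1, and Tuba1a and Tubb5 had 7.

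The last 30 coding bases encode the tail that sets isotypes apart, and are shown for 7 members because they also mark how close Tubb2a and Tubb2b are. The stop codon is in capitals.
Tuba1c: gaaggagacgatgagggtgaggaatatTAA
Tuba4a: tatgaggacgaggatgagggagaagagTAG
Tubb2a: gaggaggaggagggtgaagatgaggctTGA
Tubb2b: gaggaggaagagggcgaggatgaggctTGA
Tubb3: gaggaatcggaagcccaggggcccaagTGA
Tubb4a: gaagaggaggctgaagaggaggtggctTAA
Tubb5: ttcggagaggaggcagaagaggaggccTAA
Between Tubb2a and Tubb2b 3 of these bases differed, and between Tubb3 and Tubb5 18. Over the whole coding sequence, pairs of alpha isotypes were identical at 84.7% to 98.3% of aligned positions (median 91.2%), pairs of beta isotypes at 80.2% to 96.5% (median 83.6%), and an alpha with a beta isotype at 54.4% to 57.1%.

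The genes lie on 6 chromosomes in GRCm38. Tuba1b (chr15:98931429-98934390, minus strand), Tuba1a (chr15:98949847-98953501, minus) and Tuba1c (chr15:99029891-99038105, plus) are neighbours, as are Tubb2a (chr13:34074278-34078008, minus) and Tubb2b (chr13:34127008-34130354, minus). Tuba4a lies at chr1:75214972-75221261 (minus), Tubb3 at chr8:123411553-123422015 (plus), Tubb4a at chr17:57080061-57087600 (minus), Tubb5 at chr17:35833920-35838301 (minus), and Tubb6 on chromosome 18.

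Such likeness matters for the counts, because a read that fits several genes is not counted at the default settings of featureCounts. Each transcript was therefore read in windows of 75 bases, the length of a read. Each window was looked up, in the same orientation only, in the transcripts of other genes. Genes whose exons overlap those of the member were left out of this search, and their overlaps are given below. For Tuba1b 69.6% of windows also occurred in another gene, for Tuba1c 56.7%, for Tuba1a 54.1%, for Tubb2a 43.2% and for Tubb2b 32.2%. Tuba4a, Tubb3, Tubb4a, Tubb5 and Tubb6 shared 0 windows in this search. In no member did the search find a window wholly after the stop codon elsewhere. Within its limits, reads that lie there fit 1 gene, unless they fall on an exon overlap. Tuba1a shared 690 windows with Tuba1c and 591 with Tuba1b, and Tubb2a shared 618 with Tubb2b. The counts of these 5 genes are minimum values that hold only the reads unique to them, and are uncertain for that reason. Tuba4a overlaps the exons of the antisense gene Stk16 over 37.3% of its exon length. At its default settings featureCounts does not use strand and leaves out reads that lie on exons of 2 genes, so reads there are missing from the Tuba4a counts if the annotation used by the authors holds the same overlap. Tuba1a and Tuba1b overlap a same-strand gene model, Gm49450, over 26.2% and 22.7% of their exon length.

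**Figure D1:**
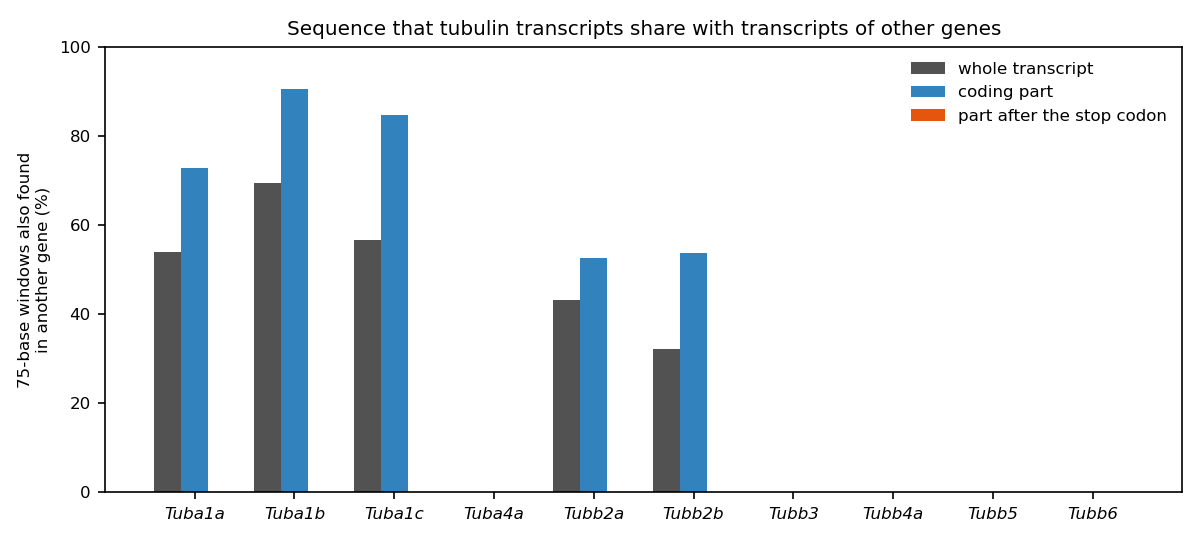
Share of 75-base windows of each tubulin transcript that also occur in a transcript of another gene (y axis, %), for the whole transcript, its coding part and the part after the stop codon. Genes whose exons overlap those of the member were left out. Tuba1b is highest at 69.6% of the whole transcript, 5 genes are at 0, and the part after the stop codon is at 0 in all 10.

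The libraries held 4247610 to 22166347 counted reads. One gene listed without a symbol took 12.4% to 33.4% of them and mitochondrial genes 9.78% to 29.2%, so levels are given as counts per 1000000 counted reads (CPM) after scaling with edgeR's TMM factors, which ranged from 0.567 to 1.44. The neuronal label was checked against markers: the 10 neuronal markers, none of them at 0 in any group, summed to 905 to 1878 CPM in the 12 libraries. The 9 astrocyte markers summed to 4879 to 6060 CPM in Ctrl somas and to 20979 to 26143 CPM in Ctrl neurites. Of these, Gfap alone had means of 1965 CPM in Ctrl somas and 17774 CPM in Ctrl neurites. The 10 oligodendrocyte markers spread from 602 to 22791 CPM over all libraries, with replicate 3 highest and replicate 2 lowest in each of the 4 groups. The markers of dividing cells were highest in replicate 2 of each group (62.6 to 259 CPM against 11.5 to 74.6 CPM in the other libraries). In such mixed cultures fewer cells of a type and less RNA per cell cannot be told apart. The 5 nuclear noncoding RNAs summed to 5838 to 7016 CPM in Ctrl somas and to 1812 to 4002 CPM in Ctrl neurites. With MG132 they summed to 7517 to 8905 CPM in somas and to 2030 to 4038 CPM in neurites. The neurites libraries thus held nuclear RNA too, and its part in differences between the fractions was not tested.

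Of the 10 members, 9 had enough counts to be tested. The exception was Tuba1b, with 0 counts in 7 of the 12 libraries and at most 5 counts in any; 0 counts allow a level of up to 0.123 to 0.793 CPM, depending on the library, for counting error only. Levels of different genes can be compared only per length of transcript. On whole transcript length Tubb4a had the highest mean of the members in each of the 4 groups. In MG132 neurites it had 61.4 CPM per kb and Tubb2b 54.5 ± 24.9 (SD, n = 3), and on the length of windows found in no other gene this order turned, with 63.5 for Tubb4a and 83.2 for Tubb2b. In Ctrl somas Tubb4a had 99.1 ± 36.1 CPM per kb (SD, n = 3), Tubb2a 52.7 ± 11.2, Tubb2b 40.0 ± 10.9, Tubb5 15.3 ± 0.508, Tuba4a 13.3 ± 4.36, Tubb3 12.04 ± 1.74, Tubb6 4.44 ± 0.687, Tuba1a 4.20 ± 1.17 and Tuba1c 1.30 ± 0.580. The libraries of neighbours in this order overlapped for Tubb2a and Tubb2b, Tubb5 and Tuba4a, Tuba4a and Tubb3, and Tubb6 and Tuba1a, while those of Tubb5 lay above those of Tubb3. In Ctrl neurites the first 3 ranks among the members held Tubb4a (96.4 ± 14.7), Tubb2b (48.9 ± 17.2) and Tubb2a (38.6 ± 12.9 CPM per kb). Summed over the 6 beta isotypes the level was 224 ± 20.3 CPM per kb in Ctrl somas and 225 ± 16.5 in Ctrl neurites, and over the 4 alpha isotypes 18.9 ± 4.86 and 18.5 ± 1.53. Alpha and beta subunits are needed in equal number in the dimer; the low alpha sum stands beside the high share of alpha sequence that could not be counted, whose part in it was not tested.

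**Figure D2:**
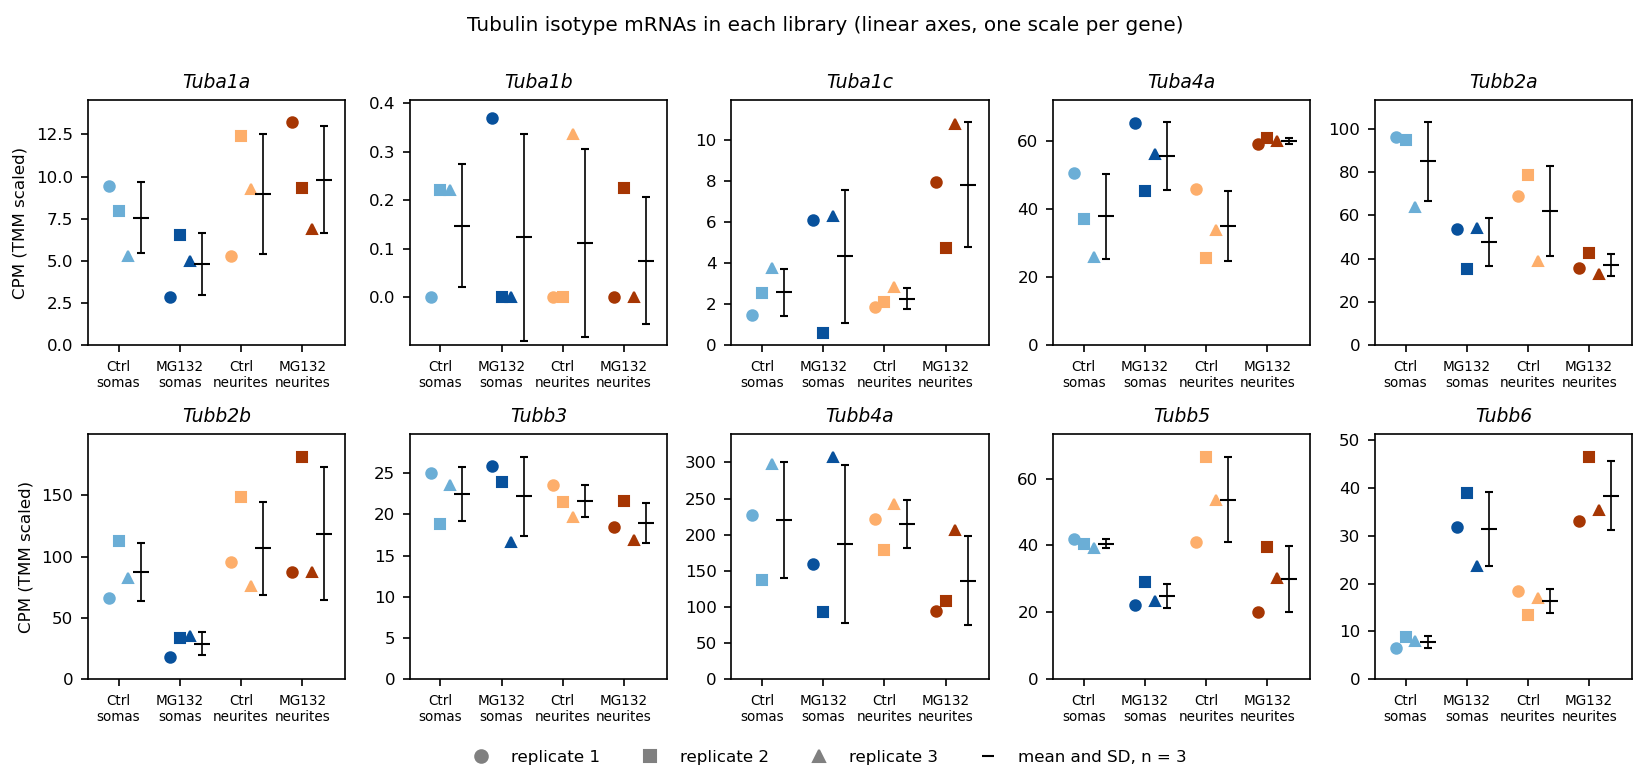
CPM of each tubulin mRNA (y axis, linear, own scale per gene) in the 12 libraries by group (x axis), with symbols for the replicate number and black bars for the mean and SD of 3 libraries. Tubb6 lies between 6.48 and 8.86 CPM in Ctrl somas and between 23.6 and 39.0 CPM in MG132 somas, while Tubb2b is lowest in MG132 somas (18.3 to 35.3 CPM).

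The first comparison asked how tubulin mRNAs in somas answered to MG132. Tubb6 rose and Tubb2b fell, and 7 other tested members were not called. A change was called where the adjusted p of edgeR's quasi-likelihood test was under 0.01 and the change was over 1.7 fold. By this rule 1 of 9 tested members was higher and 1 lower, against 9.0% of all 14185 tested genes higher and 5.58% lower. The median log2 change of the members was -0.23, and that of all genes -0.07.

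Tubb6 had 6.48, 8.86 and 8.04 CPM in the Ctrl somas libraries (replicates 1, 2 and 3) and 31.8, 39.0 and 23.6 CPM in the MG132 somas libraries. All MG132 libraries lay above all Ctrl libraries. The log2 change was 2.01 ± 0.26 (SE), or 4.03 fold, with an edgeR adjusted p of 7.44e-05. The glial marker lists had medians below 0 in the same comparison: the median log2 change was -1.19 for the astrocyte, -1.05 for the oligodendrocyte and -1.47 for the microglia markers. The 8 fibroblast and vascular markers, from cell types outside the neural lineage, summed to 202 to 275 CPM in Ctrl somas and to 62.4 to 93.5 CPM in MG132 somas, where Cldn5 was at 0. The part of any of these cells in the Tubb6 level was not tested.

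Tubb2b, a beta isotype abundant in immature neurons and neural precursors, had 66.4, 113 and 82.4 CPM in Ctrl somas and 18.3, 34.1 and 35.3 CPM in MG132 somas. The groups did not overlap, and the lowest Ctrl library had more than the highest MG132 library. The log2 change was -1.58 ± 0.34, with an edgeR adjusted p of 0.00358. Without MG132 somas replicate 1 the change of Tubb2b was -1.33 with an edgeR adjusted p of 0.020, and without Ctrl somas replicate 2 it was -1.36 with 0.014, so the call was lost in both. Its close relative Tubb2a had 96.0, 94.6 and 64.0 CPM in Ctrl somas and 53.7, 35.1 and 54.2 CPM in MG132 somas, again without overlap. Its log2 change of -0.83 ± 0.26 had an edgeR adjusted p of 0.0285, and with the replicate number as a block it was -0.77 with 0.00582, which passes the rule. Tubb5 had 42.0, 40.4 and 39.3 CPM in Ctrl somas and 22.3, 29.1 and 23.3 CPM in MG132 somas, with a log2 change of -0.71 ± 0.25 and an edgeR adjusted p of 0.0446. Libraries of the 2 groups did not overlap for 3 members that were lower and 1 that was higher, beside 22.7% and 23.2% of all genes. With the replicate block 1 member was called higher and 2 lower, beside 11.7% and 9.76% of all genes.

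Astrocyte and dividing-cell markers moved with these beta isotypes. Among the 9 astrocyte markers 6 were called lower in MG132 somas and 0 higher, and their sum went from 4879 to 6060 CPM to 2537 to 3333 CPM. The sum of the 6 dividing-cell markers went from 41.9 to 157 CPM to 11.5 to 62.6 CPM, with 0 of 6 called. The part of these cells in the lower Tubb2b, Tubb2a and Tubb5 levels was not tested.

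Tubb3 and Tubb4a showed no change past the test in somas. Tubb3 had 25.0, 18.8 and 23.6 CPM in Ctrl somas and 25.9, 24.0 and 16.7 CPM in MG132 somas, and its log2 change was -0.03 ± 0.23. Tubb4a had 228, 137 and 297.6 CPM against 160, 93.7 and 308.2 CPM, a log2 change of -0.23 ± 0.39 in which replicates differed far more than treatments. Of the alpha isotypes, Tuba4a had 50.5, 37.1 and 25.8 CPM in Ctrl somas and 65.1, 45.4 and 56.0 CPM in MG132 somas. The groups overlapped, and the log2 change of Tuba4a was 0.55 ± 0.25 with an edgeR adjusted p of 0.121. Tuba1a, with 5.29 to 9.45 CPM in Ctrl somas and 2.86 to 6.54 CPM in MG132 somas, and Tuba1c, with 1.45 to 3.75 CPM and 0.594 to 6.31 CPM, had log2 changes of -0.68 ± 0.42 and 0.80 ± 0.65.

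**Figure D3:**
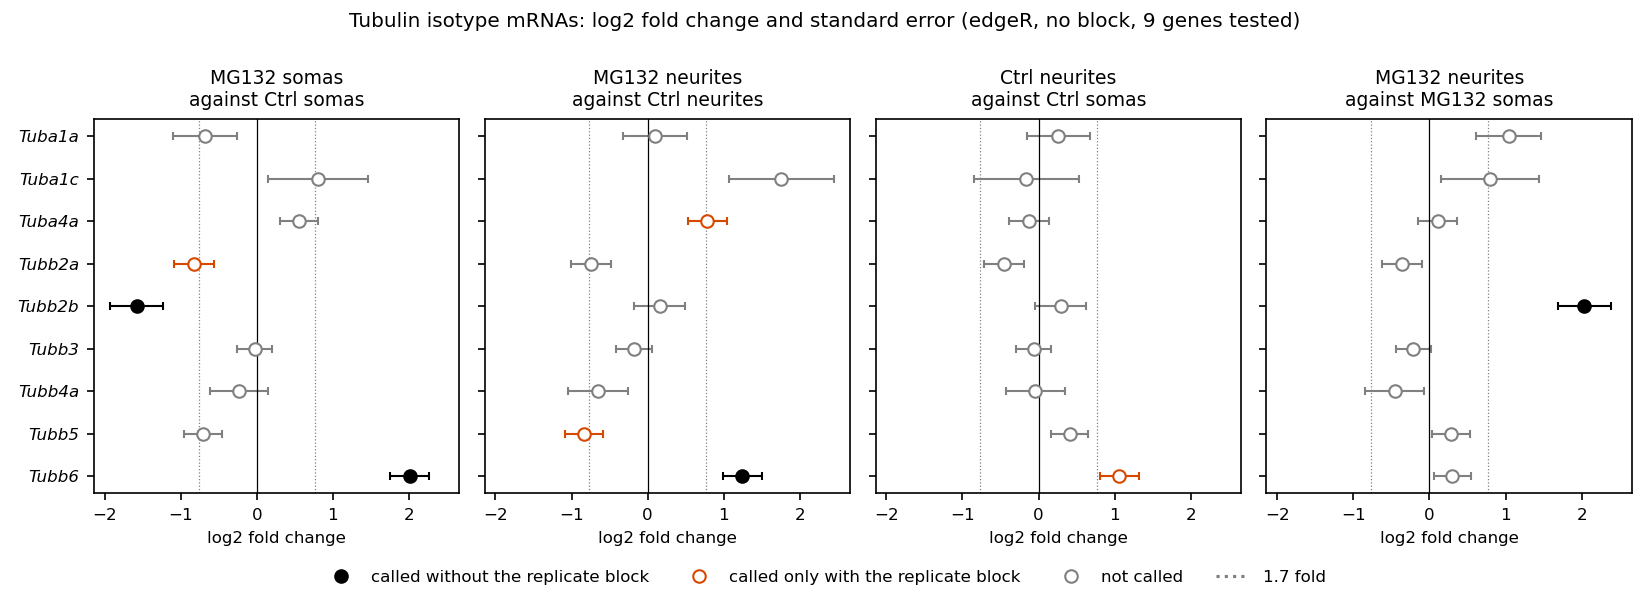
Log2 fold change (x axis) with its standard error for the 9 tested tubulin mRNAs in 4 comparisons, from edgeR without the replicate block. Filled points passed the call rule (Tubb6 at 2.01 and Tubb2b at -1.58 in somas, Tubb6 at 1.25 in neurites, Tubb2b at 2.03 between the MG132 fractions), and orange points passed it only with the replicate number as a block.

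In neurites Tubb6 rose with MG132 as well, while Tubb2b was not called. Tubb6 had 18.5, 13.5 and 17.0 CPM in Ctrl neurites and 33.0, 46.6 and 35.5 CPM in MG132 neurites, and the groups did not overlap. The log2 change was 1.25 ± 0.25, or 2.37 fold, with an edgeR adjusted p of 0.00201. It was the 1 called member of 9, all others being short of the rule, beside 9.25% of all tested genes higher and 5.44% lower. The median log2 change was 0.10 for the members and -0.16 for all genes. Without Ctrl neurites replicate 2 the Tubb6 change was 1.12 with an edgeR adjusted p of 0.012, and without MG132 neurites replicate 2 it was 1.07 with 0.014, so that the call rests on these libraries. On total counts the change was 1.16 with an edgeR adjusted p of 0.0326, and the call was lost as well.

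Tubb2b had 95.4, 149 and 76.1 CPM in Ctrl neurites and 87.5, 182 and 87.6 CPM in MG132 neurites. Replicate 2 was highest in both groups, which overlapped throughout, and the log2 change of Tubb2b was 0.16 ± 0.33 with an edgeR adjusted p of 0.760. Tubb2a, in contrast, had 69.0, 78.4 and 38.8 CPM against 35.8, 42.5 and 32.8 CPM, and was lower with MG132 in 3 of 3 same-numbered pairs. Its log2 change was -0.74 ± 0.26 with an edgeR adjusted p of 0.04999, short of the rule. Tubb5 had 41.0, 66.6 and 53.6 CPM in Ctrl neurites and 20.1, 39.6 and 30.1 CPM in MG132 neurites, without overlap. Its log2 change of -0.83 ± 0.25 had an edgeR adjusted p of 0.0216, and with the replicate block it was -0.85 with 0.00187, past the rule.

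Among alpha isotypes in neurites, Tuba4a had 45.7, 25.5 and 33.8 CPM without and 59.0, 60.8 and 59.9 CPM with MG132. The MG132 libraries were closely alike and all above the Ctrl libraries. The log2 change of Tuba4a was 0.79 ± 0.26 with an edgeR adjusted p of 0.0349, and 0.83 with 0.00243 under the replicate block, past the rule. Tuba1c went from 1.85, 2.12 and 2.86 CPM to 7.98, 4.74 and 10.8 CPM, also without overlap, with a log2 change of 1.76 ± 0.69 and an edgeR adjusted p of 0.0707. These Tuba1c values rest on 7 to 19 counts per Ctrl library. Tuba1a had 5.29, 12.4 and 9.24 CPM in Ctrl neurites and 13.2, 9.30 and 6.92 CPM in MG132 neurites, which overlapped. Groups did not overlap for 3 higher members and 1 lower member, beside 20.4% of all genes in each direction. With the replicate block 2 members were called higher and 1 lower, beside 11.8% and 9.75% of all genes.

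Tubb4a had 222, 179 and 243.2 CPM in Ctrl neurites and 94.8, 109 and 207 CPM in MG132 neurites. Its log2 change of -0.65 ± 0.39 had an edgeR adjusted p of 0.234, and with the replicate block it was -0.72 with 0.00486, still under 1.7 fold. Tubb3 had 19.7 to 23.5 CPM in Ctrl neurites and 16.8 to 21.6 CPM in MG132 neurites. Markers of glia were lower in MG132 neurites too. For astrocytes 4 of 9 markers were called lower and the sum went from 20979 to 26143 CPM to 9723 to 19911 CPM. The 6 dividing-cell markers had a median log2 change of -0.97, with 0 called. Tubb2b, lower in MG132 somas, was not called lower in these neurites. For oligodendrocytes 3 of 10 markers were called lower and the sum went from 5390 to 22791 CPM to 3029 to 16391 CPM, and for microglia 4 of 7 markers were called lower and the sum went from 544 to 1060 CPM to 82.3 to 191 CPM. The part of all these cells in the Tubb4a, Tubb5 and Tubb2b levels of neurites was not tested.

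Between Ctrl neurites and Ctrl somas 0 of 9 tubulin isotypes passed the rule by edgeR, beside 6.15% of all genes called higher in neurites and 1.28% lower. At an unadjusted p under 0.05 it was 1 member, Tubb6, which DESeq2 also called. The median log2 difference was -0.04 for the members and -0.04 for all genes. Tubb6 had 13.5 to 18.5 CPM in neurites and 6.48 to 8.86 CPM in somas, which did not overlap. Its log2 difference was 1.06 ± 0.26 with an edgeR adjusted p of 0.0114, and 1.07 with 0.00289 under the replicate block, which passes the rule. It was then the 1 member called higher, with 0 lower, beside 8.59% and 3.87% of all genes, and also the 1 member without overlap, beside 17.8% of all genes higher and 15.9% lower. For Tubb3 the difference was -0.06 ± 0.23, for Tubb4a -0.04 ± 0.39, for Tuba4a -0.12 ± 0.26 and for Tubb2a -0.45 ± 0.26. Tubb2b, Tubb5 and Tuba1a differed by 0.29 ± 0.33, 0.41 ± 0.25 and 0.26 ± 0.42, and these 3 turned negative on total counts, a scaling under which the median gene moved to -0.70 in this comparison. On that scale Tubb6 differed by 0.38.

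After MG132 the fractions differed in Tubb2b. Its 87.5, 182 and 87.6 CPM in MG132 neurites compare with 18.3, 34.1 and 35.3 CPM in MG132 somas, without overlap and with a log2 difference of 2.03 ± 0.35, or 4.09 fold, and an edgeR adjusted p of 9.24e-04. It was the 1 called member of 9, where 6.92% of all genes were called higher in neurites and 2.08% lower. The median log2 difference was 0.29 for the members and -0.08 for all genes. On total counts the median gene moved to -0.86, and the Tubb2b difference was 1.37 with an edgeR adjusted p of 0.012. This comparison shares its MG132 somas libraries with the comparison of somas above, so the low Tubb2b level in them enters both. Astrocyte markers stood higher in these neurites as well, at 9723 to 19911 CPM in sum against 2537 to 3333 CPM in MG132 somas, with 4 of 9 called higher and 1 lower; their part in the Tubb2b difference was not tested. Tuba1a had 6.92 to 13.2 CPM in MG132 neurites and 2.86 to 6.54 CPM in MG132 somas, again without overlap, with a log2 difference of 1.04 ± 0.43 and an edgeR adjusted p of 0.108. The groups did not overlap for these 2 members, higher in neurites, beside 18.9% of all genes, and for 0 members lower, beside 17.9%. With the replicate block 1 member was called higher and 0 lower, beside 9.38% and 5.33%. Tubb6 differed by 0.30 ± 0.24, a sign that turned on total counts (-0.44).

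Whether the MG132 response itself differed between neurites and somas was tested as an interaction. By edgeR without the replicate block no member passed an adjusted p of 0.01, nor did any of the 14185 genes (0.00% in either direction), although 474 genes had an unadjusted p under 0.05 with a higher signed response in neurites and 526 with a lower one. DESeq2 called 21 and 6 genes, of which 0 were members. Of the members 1 had an unadjusted p under 0.05 in each direction. With the replicate block, Tubb2b passed (1.67, edgeR adjusted p 0.0051) among 14 genes called higher and 7 lower. Same-numbered deviations correlated by 0.0972 to 0.248 over all pairs of groups, and in 12 of 12 libraries most with the same number. The fit without the block is the main one because the study's methods name no covariate. Whether Tubb2b passed thus depends on the fit. Tubb2b had the largest difference of the members, 1.74 ± 0.48 on the log2 scale, with the signed response higher in neurites in 3 of 3 same-numbered sets, an unadjusted p of 0.00245 and an edgeR adjusted p of 0.449. For Tubb6 the response was smaller in neurites by a log2 difference of -0.76 ± 0.35, in 3 of 3 sets, with an edgeR adjusted p of 0.709. The other 7 members differed by -0.42 to 0.95.

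The makeup of the tubulin mRNA is given as a description, without a test, and covers the 10 members only. Tubb4b, a beta isotype outside the members, is not in these shares or in the sums above. It had 94.4 ± 25.5 CPM (SD) in Ctrl somas and 60.4 ± 11.4 in MG132 somas. Its neurites levels were 63.8 ± 21.8 CPM in Ctrl and 36.1 ± 5.24 with MG132. As a share of the CPM per kb of the 6 beta isotypes, Tubb6 was 2.003% ± 0.438 (SD, n = 3) in Ctrl somas, 11.9% ± 5.78 in MG132 somas, 4.16% ± 0.849 in Ctrl neurites and 12.1% ± 1.51 in MG132 neurites. Tubb2b was 18.2% ± 6.47, 8.42% ± 3.61, 21.5% ± 6.00 and 29.5% ± 9.39 in the same order, and Tubb2a 23.9% ± 6.70, 18.1% ± 3.24, 16.9% ± 4.68 and 12.9% ± 2.64. Tubb3 stayed between 5.14% and 7.77% in the group means. On whole transcript length Tubb4a held the largest share in each group, 43.6% ± 12.4 in Ctrl somas, 47.7% ± 14.8 in MG132 somas, 43.3% ± 9.59 in Ctrl neurites and 33.7% ± 12.8 in MG132 neurites. Among alpha isotypes Tuba4a held 69.6% ± 5.08, 79.9% ± 2.85, 65.8% ± 13.9 and 69.2% ± 4.46. When each length was replaced by the number of windows found in no other gene, the Tuba4a share in Ctrl somas was 50.5% and that of Tubb2a 33.3%. In MG132 neurites Tubb2b was then at 34.8% and Tubb4a at 27.4%, so the ranks among genes with shared sequence depend on the length used.

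**Figure D4:**
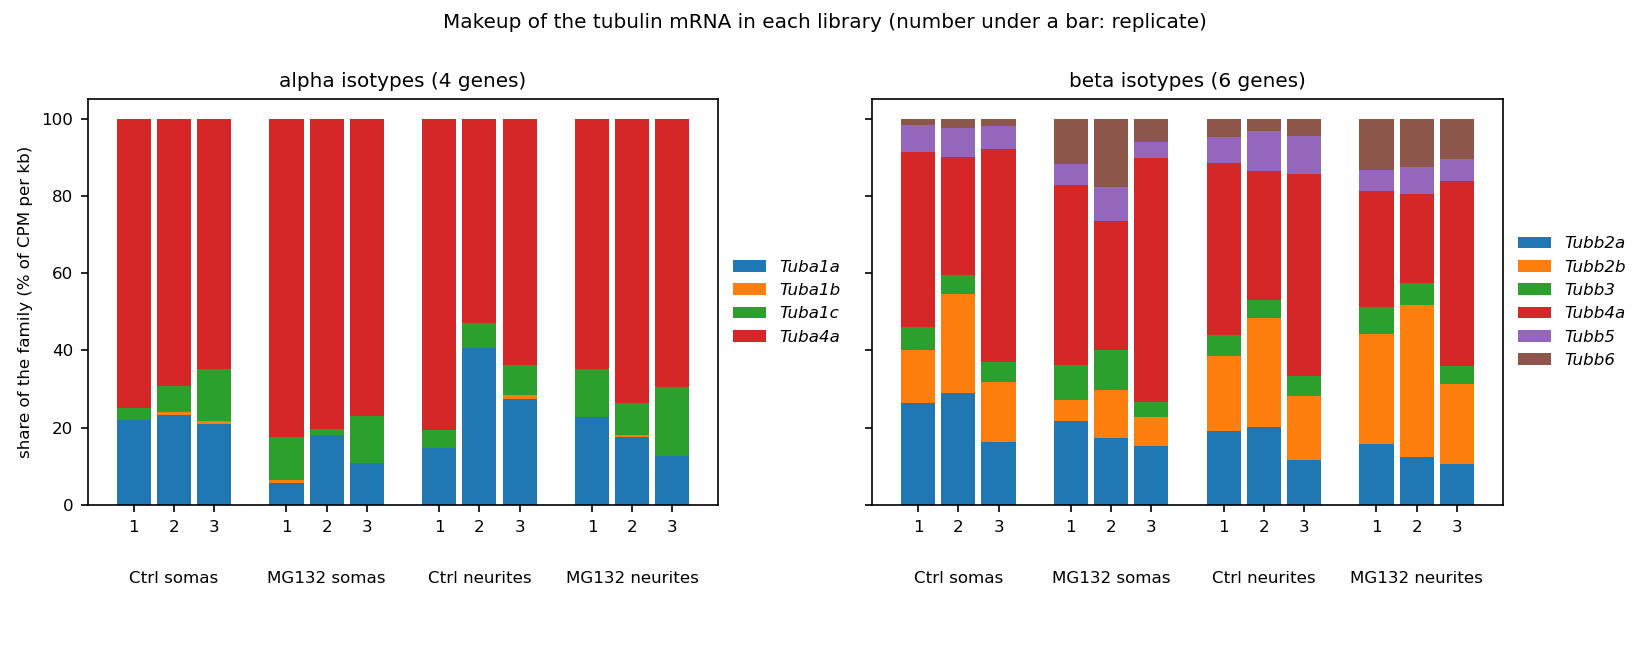
Share of each isotype (y axis, % of CPM per kb within the family) in each of the 12 libraries (x axis, replicate number under each bar), alpha isotypes at left and beta isotypes at right. Among the 6 beta members, Tubb6 widens from a mean of 2.003% to 11.9% in somas with MG132, and Tubb2b narrows from 18.2% to 8.42%.

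Tubb4a was compared with markers of oligodendrocytes and neurons from library to library. Within each group replicate 3 had the highest Tubb4a level, at 297.6, 308.2, 243.2 and 207 CPM, and in the same libraries Mog, a protein of the myelin surface, was highest too, at 84.3, 59.8, 81.1 and 42.4 CPM. Across the 12 libraries the log2 levels of Tubb4a and Mog had a Pearson correlation of 0.902, which was 0.921 after group means were removed. With Mbp, another myelin protein, the correlation was 0.452, or 0.916 after group means were removed. With the neuronal markers Rbfox3 and Map2 the correlation of Tubb4a was 0.509 and -0.177, or 0.513 and -0.232 after group means were removed, so before that step Mbp lay below Rbfox3. Libraries share depth, scaling and culture, so these are descriptions. Tubb2b correlated by 0.744 with Gfap, the intermediate filament of astrocytes, and by -0.249 with Rbfox3. After group means were removed these Tubb2b correlations were 0.702 and -0.607. Gfap was 1 of 9 astrocyte markers, and no other of them was correlated with Tubb2b. The marker Slc1a2 was lowest in replicate 2 of Ctrl neurites (2233 CPM, against 3104 and 3297), where Tubb2b was highest. Aqp4, a further marker, was highest there (390 CPM, against 346 and 369). Tubb3 correlated by 0.0779 with Rbfox3, over a Tubb3 range of only 16.7 to 25.9 CPM.

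**Figure D5:**
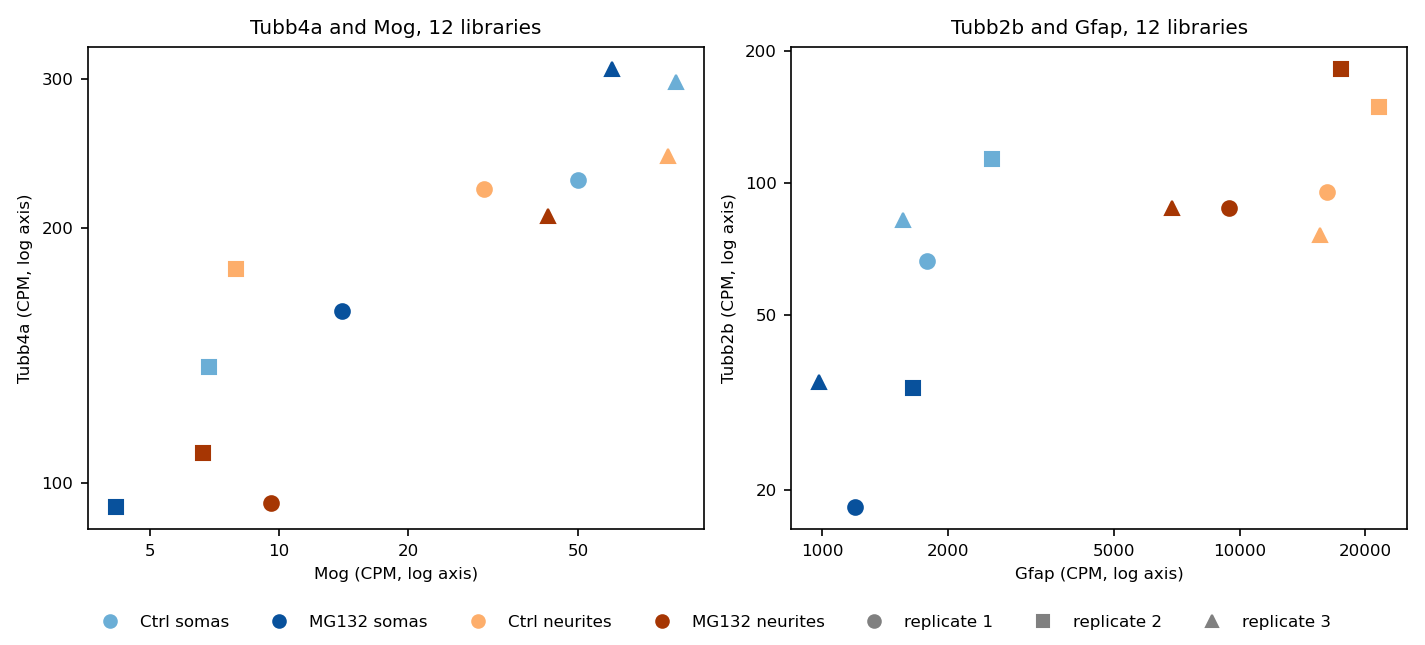
Tubb4a against Mog (left) and Tubb2b against Gfap (right), both axes CPM on a log scale, 1 point per library, colour for the group and symbol for the replicate number. Tubb4a is higher where Mog is higher across the 12 libraries (r = 0.902), and the MG132 somas libraries lie lowest in Tubb2b.

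Members varied in different ways from library to library. Over the 12 libraries the highest correlations of log2 CPM between members were 0.718 for Tuba1a with Tubb2b, 0.648 for Tuba4a with Tubb6 and 0.623 for Tubb2b with Tubb5, and the lowest was -0.828 for Tubb2a with Tubb6. Tubb2a and Tubb2b, the pair with the most shared sequence among beta isotypes, correlated by 0.172. The gene outside the tubulin superfamily most like each member over the 12 libraries was Rcan1 for Tubb6 (0.977), Anks1b for Tubb4a (0.978), Shisa7 for Tubb2a (0.955), Idh1 for Tubb5 (0.954), Dcaf6 for Tuba1c (0.943), Cyp39a1 for Tubb2b (0.931), Napa for Tuba4a (0.924), Mrpl42 for Tuba1a (0.897) and Cnrip1 for Tubb3 (0.859). Each was picked as the highest of all tested genes, so high values are built into the choice.

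Of 10 other genes of the superfamily, namely further alpha and beta isotypes and the gamma, delta and epsilon tubulins, 6 were tested. By edgeR and DESeq2 0 of them were called in any comparison, 1 was called lower in MG132 neurites with the replicate block, and at most 1 in each comparison had an unadjusted p under 0.05. The list of genes that fold tubulin held 15 genes, made up of the tubulin cofactors that build the dimer, the prefoldin subunits that hand new chains to the chaperonin, and the autoregulation factors Ttc5 and Scaper, and all 15 were tested. In Ctrl neurites against somas 6 were called higher and 0 lower, where 6.15% and 1.28% of all genes were called, with a list median of 0.85 on the log2 scale beside -0.04 for all genes. Pfdn5, a prefoldin subunit, had 59.6 ± 16.8 CPM in Ctrl neurites and 16.6 ± 0.531 CPM in Ctrl somas (log2 difference 1.85 ± 0.22), and Tbcel, a relative of the cofactor TBCE, had 216 ± 43.6 and 65.0 ± 1.41 CPM (1.73 ± 0.19). Pfdn2 differed by 1.31 and Tbca, the cofactor that holds free beta tubulin, by 1.07. Between MG132 fractions 7 were called higher and 0 lower, where 6.92% and 2.08% of all genes were called (median 0.79 beside -0.08), led by Pfdn5 at 1.86, Tbcb, a cofactor of alpha tubulin, at 1.64, Pfdn1 at 1.49 and Tbca at 1.48. On total counts 0 of 15 were called in either comparison, with list medians of 0.16 between Ctrl fractions and 0.0284 between MG132 fractions beside -0.70 and -0.86 for all genes. The sum of the astrocyte markers was higher in Ctrl neurites, at 20979 to 26143 CPM against 4879 to 6060 CPM in Ctrl somas. In MG132 neurites it was 9723 to 19911 CPM, against 2537 to 3333 CPM in MG132 somas. Between Ctrl fractions their median log2 difference was only 0.08, with 3 of 9 called higher and 1 lower. Gfap alone had a mean of 17774 CPM in Ctrl neurites and 1965 CPM in Ctrl somas. Between MG132 fractions the median was 0.77, with 4 of 9 called higher and 1 lower. The part of astrocytes in the folding list was not tested.

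With MG132 2 genes of the folding list rose in neurites and 0 fell, or 1 with the replicate block and 0 in either direction on total counts, where 9.25% of all genes were called higher and 5.44% lower: Pfdn4 went from 8.73 ± 0.674 to 24.8 ± 3.78 CPM and Tbce, which helps to join the dimer, from 12.2 ± 7.29 to 32.4 ± 5.09 CPM. In somas 0 of 15 were called by edgeR and by DESeq2 and 1 was called higher with the block, while 3 were higher and 1 lower at an unadjusted p under 0.05. The list median in somas was 0.06 beside -0.07. The interaction called 0 of 15 by edgeR and by DESeq2, with 1 at an unadjusted p under 0.05, so the fractions were not shown to respond differently.

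Of 21 enzymes that modify tubulin, 20 were listed in the files and tested. Vash1, which removes the C-terminal tyrosine of alpha tubulin, had 216 ± 9.13 CPM in Ctrl neurites and 49.1 ± 9.92 CPM in Ctrl somas, a log2 difference of 2.14 ± 0.25, and Ttl, which puts the tyrosine back, had 56.8 ± 7.93 and 20.2 ± 2.18 CPM (1.49 ± 0.23). Ttll6, a polyglutamylase, was lower in Ctrl neurites, at 0.549 ± 0.224 against 6.10 ± 0.131 CPM, a neurites level that rests on few counts. With MG132 Vash1 in neurites fell to 77.4 ± 26.9 CPM, a log2 change of -1.47 ± 0.24 with an edgeR adjusted p of 4.11e-04, and it remained above the 27.7 ± 4.91 CPM of MG132 somas (1.48 ± 0.24). Agbl3 and Agbl5, carboxypeptidases that trim glutamates, fell in MG132 neurites by 2.66 and 2.57 on the log2 scale, to 1.0998 and 0.855 CPM, and Agbl3 fell by 2.93 in MG132 somas. In all, 3 modifying enzymes were called lower and 0 higher with MG132 in neurites, beside 5.44% and 9.25% of all genes. In somas 1 was called lower and 0 higher, beside 5.58% and 9.0% of all genes. With the replicate block 2 were lower in somas, beside 9.76% of all genes. Between Ctrl fractions 2 of the 20 were called higher and 1 lower, beside 6.15% and 1.28% of all genes. Between MG132 fractions 1 was called higher and 0 lower, beside 6.92% and 2.08% of all genes. With the block 1 was higher and 2 lower, beside 9.38% and 5.33%. On total counts, where the median gene was at -0.86, 0 were higher and 4 lower. The list medians with MG132 in neurites and somas were -0.35 and -0.37, beside -0.16 and -0.07 for all genes.

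All 37 microtubule-binding proteins on the list were tested. With MG132 7 rose and 2 fell in neurites, and 1 rose and 0 fell in somas, where the replicate block called 4 higher and 2 lower. Of all genes 9.25% were called higher and 5.44% lower in neurites and 9.0% and 5.58% in somas. With the block it was 11.7% and 9.76% in somas. On total counts 0 of the list were called higher in neurites and 2 lower, and 0 in somas. The list medians were -0.08 and -0.05. In neurites Katna1, the catalytic subunit of the severing enzyme katanin, rose from 10.7 ± 1.79 to 30.4 ± 6.99 CPM. Map1b, a large protein that binds along microtubules of growing neurites, rose from 999 ± 120 to 2314 ± 106 CPM (log2 change 1.21 ± 0.18), and Mapt, which encodes tau, fell from 177 ± 15.8 to 82.2 ± 7.77 CPM (-1.10 ± 0.16). In somas the 1 called gene was Camsap1, a protein of free minus ends, at 36.9 ± 6.63 and 72.4 ± 8.29 CPM (0.97 ± 0.18). Between Ctrl fractions Map4, a protein of many cell types that binds along microtubules, had 1878 ± 407 CPM in neurites and 258 ± 51.3 CPM in somas (2.87 ± 0.23), and Mapre1, which tracks growing plus ends, 560 ± 72.1 and 137 ± 20.1 CPM (2.03 ± 0.18), while Mapre3 was lower in neurites (-0.82 ± 0.19). Between MG132 fractions Map4, Stmn1, a protein that binds free dimers, Mapre1 and Map1b were called higher in neurites, by 2.22, 2.10, 1.43 and 1.06, and with the replicate block 7 genes of the list were called higher and 1 lower. Of all genes 6.92% were called higher and 2.08% lower between MG132 fractions, or 9.38% and 5.33% with the block. On total counts, where the median gene was at -0.86, 1 of the list was called higher and 10 lower. Between Ctrl fractions 2 of the list were called higher and 1 lower, beside 6.15% and 1.28% of all genes.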

How the data were processed

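RNA-Seq libraries were made by polyA capture from the somas and neurites of MG132 and Ctrl cultures, 12 in all. Per the labels and the study's methods, the authors trimmed single-end reads with Trimmomatic 0.38.0, mapped them on mm10 by STAR, counted reads per gene with featureCounts 2.0.1, both at default parameters, and used DESeq2 2.11.40.7. The deposited values are whole-number counts per Entrez gene, not normalized and not filtered. Reads that fit several genes were thus not counted, which lowers the counts of near-identical tubulins.

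Symbols and GRCm38 coordinates came from RefSeq, and 25275 of 27179 genes had a symbol. Transcripts and lengths came from GENCODE M21, with the transcript of each gene that matches a RefSeq mRNA. The analysis used edgeR 4.0.16 (R 4.3.3). After filterByExpr by group, 14185 genes were left. TMM factors scaled the libraries, and all 12 entered a single quasi-likelihood fit with a mean per group. P-values were adjusted by the Benjamini-Hochberg method over all tested genes. Genes were called at an adjusted p under 0.01 together with over 1.7 fold. The interaction used the adjusted p alone. Standard errors are the log2 change divided by the square root of F. The fit was tested on simulated data. No pair among the 66 of libraries was identical.

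Same-numbered libraries deviated together from their group means in each of the 4 comparisons, with correlations of 0.165 to 0.248, so the replicate numbers pair the samples there. This pairing comes from the data and from the numbers in the labels. The dates in the library names follow the numbers except for 1 MG132 neurites library. Fits with the replicate number as a block are given where they change a member's call or move the count of a list by over 1.5 times.

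The 10 members and all gene lists were chosen with earlier results of these data known. Named genes are the members, up to 4 called genes with the largest change and a mean of at least 1 CPM per list and comparison, and the 1 most correlated gene per member. Marker genes of cell types were named besides. Alternatives were DESeq2 1.42.0, its size factors, total counts with and without mitochondrial genes and the most abundant gene, other count filters, only the groups compared, the replicate block, other thresholds, each library left out, and unique transcript length for shares. Whole transcript length stood in for the exon length planned. Tubb6 entered the window and identity counts but none of its sequence is printed, amino acid sequences were not used here, and some items that the naming rule gives are not reported here.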

Additional observations from a re-analysis of the deposited data

Results flagged for a closer look

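Tubb2b and Tubb6 are set apart because their MG132 response differed between neurites and somas at an unadjusted p under 0.05 of edgeR's interaction test. For Tubb2b the log2 response was -1.58 in somas and 0.16 in neurites, a difference of 1.74 ± 0.48 (SE), with the signed response higher in neurites in 3 of 3 same-numbered sets of libraries, an unadjusted p of 0.00245 and an adjusted p of 0.449. The Tubb2b difference fails the correction by edgeR without the replicate block. DESeq2 gave an adjusted p of 0.0332, and edgeR with the block gave 0.0051. For Tubb6 the log2 response was 2.01 in somas and 1.25 in neurites, a difference of -0.76 ± 0.35 in 3 of 3 sets, with an unadjusted p of 0.0472 and an edgeR adjusted p of 0.709, which also fails the correction. Ctrl neurites already held 13.5 to 18.5 CPM of Tubb6 against 6.48 to 8.86 CPM in Ctrl somas, and the MG132 groups overlapped at 33.0 to 46.6 and 23.6 to 39.0 CPM. Among the 9 tested members, 2 had an unadjusted p under 0.05.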

How the results depend on the processing

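By edgeR without the replicate block, members called higher and lower were 1 and 1 with MG132 in somas, 1 and 0 with MG132 in neurites, 0 and 0 between Ctrl fractions, 1 and 0 between MG132 fractions and 0 and 0 for the interaction. The other tubulin, folding, modifying and binding genes together had 1 and 1, 9 and 5, 10 and 2, 12 and 0, and 0 and 0 in that order. Of the log2 changes of members under alternatives other than leaving out a library, 317 kept their direction and their side of the threshold, 11 passed it newly, 2 no longer passed it and 16 changed sign. The cause was not tested where the text names none.

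With MG132 in somas, 2 members were lower by DESeq2, with the replicate block and at an adjusted p under 0.05, and 0 with an absolute log2 change above 1.7. In neurites, members higher were 0 on total counts, where Tubb6 was at 1.16 with an edgeR adjusted p of 0.0326, and 0 with the log2 limit of 1.7, and 2 without a count filter, with the block and at an adjusted p under 0.05. In neurites 1 was lower by DESeq2, with at least 10 counts in every library, with the block and at an adjusted p under 0.05. Between Ctrl fractions 1 was higher by DESeq2, with the block and at an adjusted p under 0.05. Between MG132 fractions 0 were higher and 1 lower on total counts, which was Tubb4a. With the block, 1 member (Tubb2b, 1.67, edgeR adjusted p 0.0051) passed the interaction, where 14 of all genes were called higher and 7 lower. Over all pairs of groups same-numbered deviations correlated by 0.0972 to 0.248, lowest between Ctrl neurites and MG132 somas. Tubb2b passed the interaction with the block and not without it. In 12 of 12 libraries the mean correlation of deviations with libraries of the other groups was highest for the same number. The block changed no member's call beyond those given here and in the results.

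For the related genes with MG132 in somas, the number higher was 0 on total counts and with the log2 limit of 1.7, 2 by DESeq2, with only the groups compared and without a fold limit, 3 without a count filter, 5 with the block and 6 at an adjusted p under 0.05. The number lower was 3 with DESeq2 size factors and without a count filter, 4 by DESeq2, with the block and at an adjusted p under 0.05, and 2 on total counts without mitochondrial genes and the most abundant gene, with 10 counts in every library, with only the groups compared and without a fold limit. In neurites with MG132 0 were higher on total counts and with the log2 limit, and the number lower was 8 by DESeq2 and with the block, 3 with only the groups compared, 2 with the log2 limit and 10 at an adjusted p under 0.05. Between Ctrl fractions 3 were higher on total counts, 6 without mitochondrial genes and the most abundant gene and 5 with the log2 limit. Lower were 4 and 5 on these total counts, and 1 with 10 counts in every library, with only the groups compared and with the log2 limit. Between MG132 fractions 1 was higher on total counts and 3 with the log2 limit. Lower were 15 and 11 on these total counts, 3 by DESeq2, with the block and at an adjusted p under 0.05, and 1 without a count filter and with 10 counts in every library. DESeq2 called 1 lower in the interaction.

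Total counts moved the median gene from -0.04 to -0.70 between Ctrl fractions and from -0.08 to -0.86 between MG132 fractions, or to -0.50 in both without mitochondrial genes and the most abundant gene. With MG132 it moved from -0.16 to -0.30 in neurites and from -0.07 to -0.10 in somas. Signs of members that turned are given first on total counts and then without mitochondrial genes and the most abundant gene. Between Ctrl fractions they were Tuba1a at -0.38 and -0.20, Tubb2b at -0.34 and -0.15, and Tubb5 at -0.23 and -0.0508. Between MG132 fractions they were Tuba4a at -0.69 and -0.32, Tubb5 at -0.44 and -0.14, Tubb6 at -0.44 and -0.13, and on total counts alone Tuba1c at -0.13. In neurites with MG132 Tuba1a was at -0.0873 on total counts and -0.0155 with 10 counts in every library. With the block Tubb4a was at 0.0327 between Ctrl fractions.

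With each library left out in turn, members called higher were 1 to 1 in somas with MG132, 0 to 1 in neurites with MG132, 0 to 0 between Ctrl fractions and 1 to 1 between MG132 fractions. Members called lower were 0 to 1, 0 to 1, 0 to 0 and 0 to 0, and the interaction had 0 in both directions. Related genes higher were 1 to 4, 6 to 9, 6 to 11 and 10 to 14, and lower 0 to 2, 2 to 5, 0 to 2 and 0 to 0, with 0 for the interaction. Member values that changed sign had these log2 ranges. Between Ctrl fractions Tuba1a ranged from -0.0473 to 0.52, Tuba1c from -0.52 to 0.14, Tuba4a from -0.41 to 0.0834, Tubb2b from -0.0256 to 0.45 and Tubb4a from -0.37 to 0.16. In neurites with MG132 Tuba1a ranged from -0.15 to 0.43, Tubb2b from -0.29 to 0.49 and Tubb3 from -0.29 to 0.0239. In somas with MG132 Tubb3 ranged from -0.16 to 0.15 and Tubb4a from -0.79 to 0.0915. Between MG132 fractions Tuba4a ranged from -0.0169 to 0.30 and Tubb4a from -0.82 to 0.15. In the interaction Tubb2a ranged from -0.0894 to 0.37, Tubb3 from -0.27 to 0.0693, Tubb4a from -0.74 to 0.20 and Tubb5 from -0.39 to 0.10.

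With unique length, Tuba4a held 50.5% of the 4 alpha members in Ctrl somas, 63.6% in MG132 somas, 47.4% in Ctrl neurites and 49.9% in MG132 neurites. Tubb2a held 33.3%, 27.3%, 24.3% and 18.5% of the 6 beta members in this order, and Tubb6 9.79% in MG132 neurites. Tuba1b had at most 5 counts in a library and did not enter the tests, and Tuba1c rests on few counts.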
